A study of Mus musculus with 2 samples.

Results

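The 9 genes described here encode the Hedgehog ligand and the proteins that receive and relay its signal: Shh, Ptch1, Smo, Boc, Cdon, Hhip, Gli1, Gli2 and Gli3. They were found by their symbols among the 31055 features of both count matrices, and each of the 9 was present once in each. The cells came from pituitaries of Sox9iresGFP/+ mice at postnatal day 3, sorted for GFP, with 1 male and 1 female library and 3 pituitaries pooled in each. Both libraries carry the same reporter allele, in which the Sox9 locus also drives GFP. The GFP gate took more than stem cells (SCs), as the classes described below show. No GFP-negative fraction was sequenced, and no untreated or mutant counterpart was compared.

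Hedgehog proteins are secreted ligands. Without ligand, the receptor PTCH1 holds the membrane protein SMO inactive. Ligand binding to PTCH1, helped by the co-receptors BOC, CDON and GAS1, frees SMO to act in the primary cilium, where it changes the GLI factors from repressor to activator forms. GLI3 acts mostly as a repressor, GLI2 mostly as an activator, and GLI1 is both an activator and a target of the pathway. PTCH1 and HHIP, a membrane protein that binds and sequesters ligand, are also targets. In the embryo, Hedgehog signalling from the oral ectoderm and the ventral forebrain patterns the pituitary primordium. The question taken up here was which cells of the neonatal SC fraction held transcripts to send this signal and which held transcripts to receive it.

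On mm10 with GENCODE vM21, all 9 are protein-coding genes and their identifiers matched the annotation. Shh lies at chr5:28456815-28467256, Ptch1 at chr13:63508328-63573598, Boc at chr16:44485049-44558897, Hhip at chr8:79965851-80058006, Gli1 at chr10:127329882-127341974 and Gli2 at chr1:118834132-119053619, all on the minus strand. On the plus strand lie Smo at chr6:29735503-29761365, Cdon at chr9:35421128-35507652 and Gli3 at chr13:15463235-15730026. The matrices give 1 row per gene, so that exons and isoforms cannot be separated.

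After filtering, 10410 male and 5711 female cells remained, with 105883748 and 62830305 UMIs (unique molecular identifiers, 1 for each captured transcript) and medians of 8902 and 9789 per cell. The libraries shared 19 barcodes. Of the members, Ptch1 had 4972 male and 3651 female UMIs, Smo 3714 and 2417, Boc 1383 and 1085, Gli3 1124 and 671, Cdon 911 and 570, Gli2 612 and 452, Hhip 379 and 124, Shh 311 and 148, and Gli1 133 and 98. Paired values below are always the male library first, then the female. With 1 library per sex there is no test of any difference, and sex and library cannot be told apart. Levels are in CPM, the usual scaling of the UMIs of a gene to the UMIs of all genes in its class. Their limits in parentheses are exact Poisson 95% intervals, those of shares are Clopper-Pearson 95% intervals, and neither covers more than counting error. The limits of a ratio divide the opposite 95% limits of its levels, so they are wider than a 95% interval of the ratio. Agreement between the libraries is the replication available.

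Cells were placed in classes by raw UMIs of marker genes, and a cell took the first class whose markers it held. SC-like cells (Sox2 without Lef1 or Pou1f1) numbered 3227 and 3423. Differentiating-like cells (Lef1 and at least 3 UMIs of Gadd45g) numbered 1007 and 701, of which 839 and 575 were late (with Smoc2, Pou3f4 or C1ql2) and 83 and 78 early (with Cdkn1a or Dll1 and none of those 3). There were 447 and 37 gonadotroph-like, 786 and 282 POU1F1-lineage-like, 325 and 128 POMC-lineage-like and 737 and 330 mesenchymal-like cells. Cells with at least 20 UMIs of Cga that were not gonadotroph-like were kept out of the SC-like and differentiating-like gates, whatever else they held. The remaining 3836 and 800 cells met no gate, 2315 and 75 of them with under 2000 UMIs. Of the 443 and 105 unassigned cells with this much Cga and at least 2000 UMIs, 46.7% and 53.3% held a UMI of Lef1. A UMI of Gadd45g was in 86.2% and 89.5% of them. In all, 258 and 102 cells met several gates. Among those that met none, 294 and 259 had Lef1 with under 3 UMIs of Gadd45g, just short of the differentiating-like gate. Genes outside the gates matched the names, with an exception for S100b. Krt18, an epithelial keratin, was at 788 and 898 CPM in SC-like cells, Chga, a secretory granule protein, at 797 and 744 in gonadotroph-like against 23.7 and 33.3 in SC-like cells, and Gh at 18473 and 35391 in POU1F1-lineage-like cells. Col6a1, a collagen of stromal cells, was at 621 and 643 CPM in mesenchymal-like and 0.642 and 0.139 in SC-like cells. S100b, often used as an SC marker, was at 0.395 and 0.251 CPM in SC-like cells, near 0. Pomc, the corticotroph and melanotroph hormone precursor, was at 238 and 70.8 CPM in SC-like cells, and the part of free RNA in low levels was not tested.

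Shh was highest, of the classes compared, in late differentiating-like cells. Its level in that class was 10.9 (9.08 to 12.9) and 11.5 CPM (9.21 to 14.1), and over all SC-like cells 0.568 (0.360 to 0.852) and 0.390 CPM (0.213 to 0.654). Unassigned cells with at least 20 UMIs of Cga, not a class compared, had more, 13.5 (10.8 to 16.7) and 18.9 CPM (12.7 to 26.9). Their intervals overlap those of the late cells. Over all differentiating-like cells the level was 9.20 and 9.48 CPM, which was 16.2-fold (9.06 to 30.2) and 24.3-fold (11.6 to 54.7) that of SC-like cells. Early differentiating-like cells held 0 Shh UMIs in both libraries, and the late cells were at least 4.0-fold and at least 3.41-fold higher, with 3 counts as the floor for the early cells. Both libraries therefore gave the same order, with the intervals of late differentiating-like and SC-like cells apart. Thinning the cells moved the male ratio of all differentiating-like cells to 6.47, and a gate that did not need Lef1 moved both, to at least 75.0-fold and to 212-fold.

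Of all Shh UMIs, the late differentiating-like cells held 42.4% (36.9 to 48.1) and 60.1% (51.8 to 68.1) while holding 11.5% and 12.4% of the UMIs of all genes. SC-like cells held 23 and 14 Shh UMIs, 7.40% and 9.46% of the total, against 38.3% and 57.1% of all UMIs. Cycling SC-like cells held 0 in either library. Unassigned cells with at least 20 UMIs of Cga held 27.3% and 20.3% of the Shh UMIs. A UMI of Shh was seen in 197 and 97 cells altogether, with at most 6 and 10 UMIs in a cell. After every cell was thinned to 5000 UMIs, Shh was detected in 4.85% (3.49 to 6.55) and 4.71% (3.13 to 6.78) of late differentiating-like cells, and in 0 of 715 and 0 of 546 cycling SC-like cells, which, at 3 cells of those counted, allows a share of cells with a UMI of up to 0.420% and 0.549%. It was also in 0 of 219 and 0 of 128 POMC-lineage-like cells, which allows up to 1.37% and 2.34% by the same limit of 3 cells. When the classes were gated on thinned counts, all differentiating-like cells together held 25.7% and 30.9% of the Shh UMIs, compared with 43.7% and 60.1% before.

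**Figure D1:**
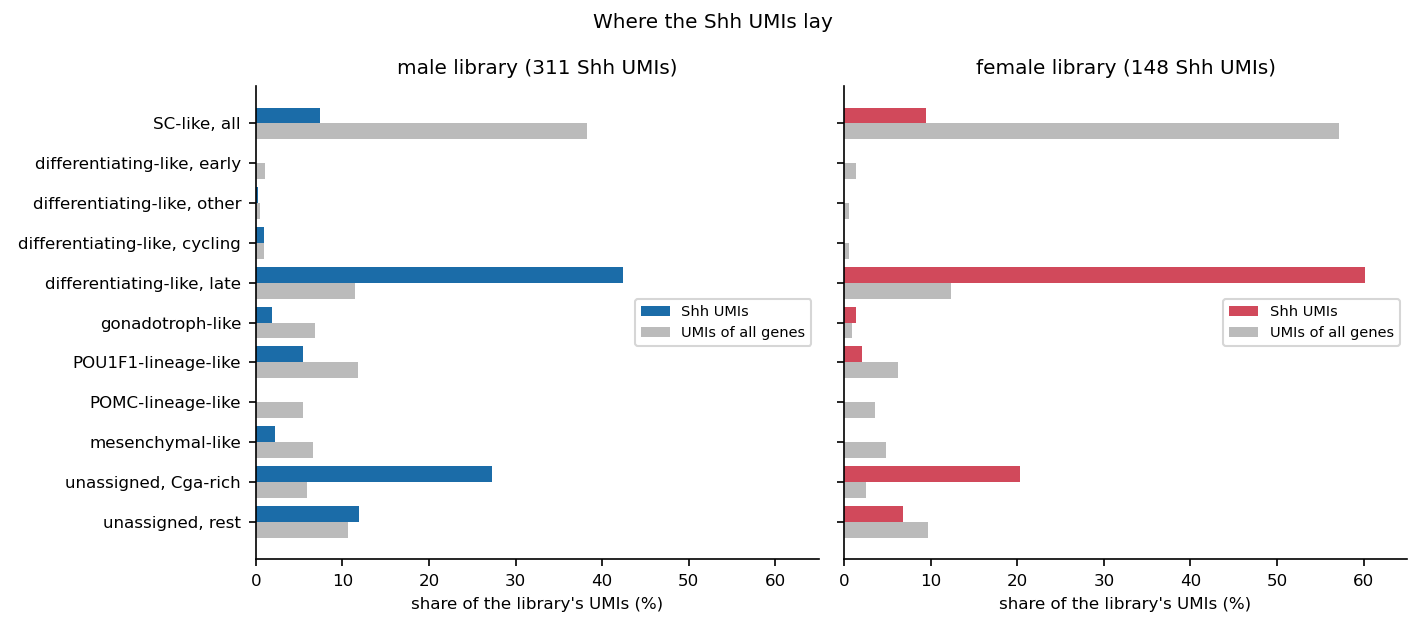
Share of each library's Shh UMIs (coloured bars) and of its UMIs of all genes (grey bars) in each class, in percent, for the male (left) and female (right) library. The late differentiating-like bar is the longest for Shh in both panels, at 42.4% and 60.1%, although that class held 11.5% and 12.4% of all UMIs.

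Outside the late class, Shh-positive SC-like cells mostly held a gene of the late gate. Of 16 and 8 SC-like cells with a Shh UMI, 15 (93.8%) and 7 (87.5%) held a UMI of Smoc2, Pou3f4 or C1ql2, compared with 342 of 3211 (10.7%) and 270 of 3415 (7.91%) SC-like cells without one. At least 3 UMIs of Gadd45g, a stress and cell cycle exit gene used in the differentiating-like gate, were in 14 and 8 of them, 87.5% and 100% against 22.6% and 17.2%. These Shh-positive SC-like cells were deeper, with medians of 12453 against 9918 UMIs and 14118 against 9254, and the part of depth in these shares was not tested. In the male mesenchymal-like cells a gene of the late gate was in 4 of the 7 with a Shh UMI (57.1%) and in 18.4% of the others, at median depths of 20954 against 7792 UMIs. POU1F1-lineage-like cells held Shh at 1.36 and 0.763 CPM, gonadotroph-like cells 6 and 2 UMIs, POMC-lineage-like cells 0 and 0, and mesenchymal-like cells 7 and 0. Differentiating-like cells were 6.75-fold (3.54 to 13.7) and 12.4-fold (3.41 to 74.1) higher than POU1F1-lineage-like cells.

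Within the late differentiating-like class, 79 and 56 cells held a Shh UMI. They had higher levels of Cga, Neurod1 and Foxl2 than the 760 and 519 cells without one. Cga, the hormone subunit shared by gonadotrophs and thyrotrophs, was at 365 against 124 CPM in the male library, a ratio of 2.94 (2.54 to 3.41), and at 244 against 91.2 CPM in the female, a ratio of 2.67 (2.13 to 3.34). Neurod1, a neuroendocrine transcription factor, had ratios of 2.47 (1.82 to 3.32) and 3.32 (2.15 to 5.07), and Foxl2, a transcription factor of the gonadotroph and thyrotroph lineages, 1.99 (1.60 to 2.48) and 2.05 (1.51 to 2.77). Pou3f4, a gene of the late gate, had ratios of 1.82 (1.48 to 2.22) and 1.72 (1.41 to 2.10). Cdkn1a, a cell cycle inhibitor used in the early gate, went the other way, at 15.6 against 73.8 CPM, a ratio of 0.211 (0.119 to 0.354), and 7.70 against 77.2 CPM, a ratio of 0.0998 (0.0337 to 0.237). Pou1f1 did not follow in both libraries. It had 8 UMIs in the male Shh-positive cells, a ratio of 2.39 (0.723 to 6.98), and 0 in the female ones against 23 in the Shh-negative cells. Sox2 was a little lower, with ratios of 0.874 (0.765 to 0.996) and 0.828 (0.709 to 0.964). Median depths were close, 14347 against 13898 and 13356 against 12801 UMIs. By its gate the class holds no cell with 20 or more UMIs of Cga or 2 or more of Pou1f1. The comparisons of Cga and Pou1f1 leave such cells out.

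The Shh-positive late cells also held receptor transcripts. A Ptch1 UMI was found in 35 of 79 and 20 of 56 of them and a Smo UMI in 34 and 15. Ratios of Shh-positive over Shh-negative late cells were 1.31 (0.857 to 1.97) and 0.95 (0.541 to 1.60) for Ptch1, and 1.20 (0.780 to 1.79) and 0.567 (0.287 to 1.05) for Smo. These limits hold 1, but they are wider than 95% intervals and do not settle whether female Smo was lower. Gli1 had 0 UMIs in the Shh-positive late cells of both libraries, Gli3 had 3 and 1, and Boc 1 and 0, too few to compare.

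**Figure D2:**
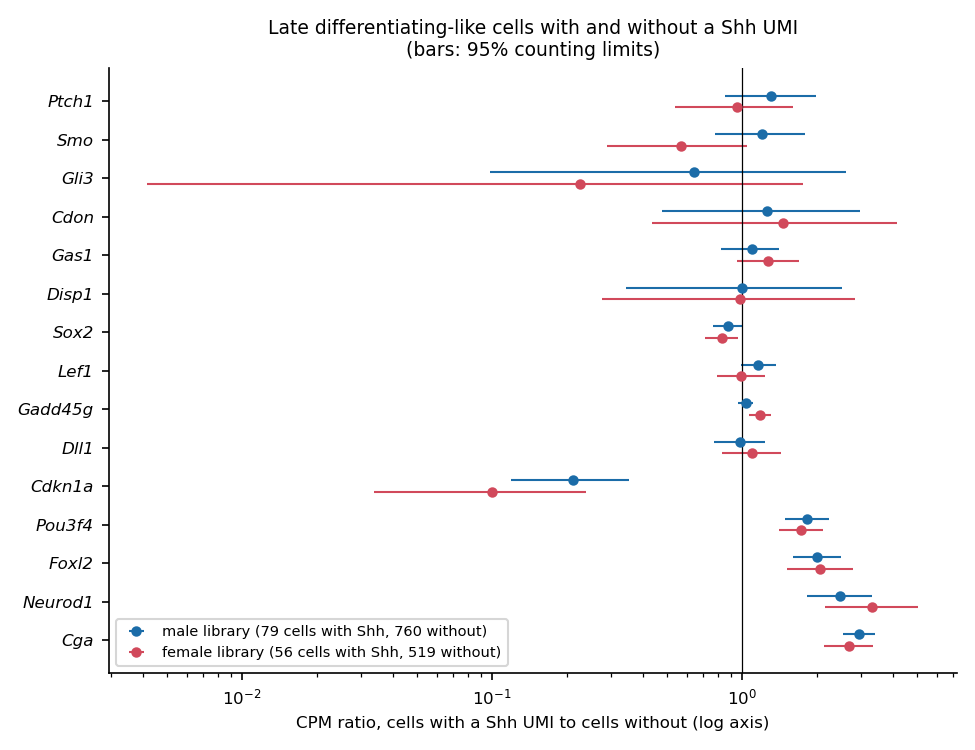
Ratio of CPM in late differentiating-like cells with a Shh UMI over those without (log axis), for each gene in the male and female library. Bars divide the opposite 95% counting limits of the levels and are wider than a 95% interval. Cga, Neurod1, Foxl2 and Pou3f4 lie above 1 and Cdkn1a below it in both libraries, while the intervals of Ptch1 and Smo hold 1.

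The other ligand genes were close to the detection limit. Ihh had 10 and 5 UMIs and Dhh 4 and 3 in the whole libraries, and neither reached the 20 UMIs needed to be compared. Of the genes that prepare and release ligand, Disp1, the exporter of lipid-modified Hedgehog, was similar in SC-like (6.84 and 5.60 CPM) and differentiating-like cells (5.95 and 7.88 CPM). Hhat, which adds the palmitate, was at 2.52 and 2.81 CPM in SC-like and 1.22 and 2.02 in differentiating-like cells. The SCUBE proteins, secreted carriers that help free the ligand from the membrane, differed most. Scube1 was higher in differentiating-like than SC-like cells, by 2.15-fold and 7.65-fold from levels under 1 CPM, and Scube2 and Scube3 were higher in SC-like cells, by 2.26-fold and 8.11-fold (0.989 to 455, from 1 UMI in the female differentiating-like cells) and by 4.62-fold (1.12 to 30.8, from 3 UMIs in the male ones) and 3.86-fold.

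Ptch1, the receptor, was highest in SC-like cells and was held by every class described. SC-like cells had 62.0 (59.6 to 64.5) and 70.5 CPM (67.8 to 73.3), followed by 57.3 (51.8 to 63.2) and 54.9 (46.9 to 64.0) in mesenchymal-like cells, 36.1 and 47.3 in POU1F1-lineage-like cells, 32.1 (29.3 to 35.1) and 38.0 (34.2 to 42.2) in differentiating-like cells, 24.7 and 14.1 in gonadotroph-like cells and 15.1 and 16.9 in POMC-lineage-like cells. SC-like and mesenchymal-like cells overlapped in their intervals in the male library and not in the female, and POU1F1-lineage-like and differentiating-like cells were neighbours in the same order in both. SC-like cells were 1.93-fold (1.70 to 2.20) and 1.86-fold (1.61 to 2.15) above differentiating-like cells, short of a 2-fold difference. The order of gonadotroph-like and POMC-lineage-like cells changed between the libraries. Thinned to equal depth, 24.2% and 26.9% of SC-like, 11.7% and 13.8% of late differentiating-like and 6.39% and 8.59% of POMC-lineage-like cells held a Ptch1 UMI. The lowest share was that of POMC-lineage-like cells in the male library and of gonadotroph-like cells (2 of 36) in the female.

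Smo, the transducer that PTCH1 holds inactive, was highest in mesenchymal-like cells, at 61.6 CPM (55.9 to 67.8) and 63.2 CPM (54.6 to 72.8). SC-like cells had 44.9 (42.9 to 47.0) and 41.9 (39.8 to 44.1), differentiating-like cells 32.9 and 35.7, POU1F1-lineage-like cells 22.4 and 16.8, gonadotroph-like cells 13.9 and 12.3, and POMC-lineage-like cells 6.07 (4.23 to 8.44) and 12.5 (8.28 to 18.0). The difference between SC-like and differentiating-like cells was small for Smo, 1.37-fold (1.19 to 1.57) and 1.17-fold (1.0 to 1.38). Detection at equal depth was 26.2% and 26.6% in mesenchymal-like, 18.2% and 18.2% in SC-like, 2.28% and 8.59% in POMC-lineage-like and 9.24% and 6.14% in POU1F1-lineage-like cells.

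The co-receptors divided the classes differently. Boc was at 19.9 CPM (18.6 to 21.4) and 21.4 (19.9 to 23.0) in SC-like cells, 3.21 (2.28 to 4.39) and 2.83 (1.78 to 4.29) in late differentiating-like cells and 25.8 (22.1 to 29.8) and 48.6 (41.1 to 57.2) in mesenchymal-like cells. Cdon varied less between SC-like (9.52 and 10.9 CPM), late differentiating-like (6.66 and 6.44), gonadotroph-like (10.8 and 12.3) and POU1F1-lineage-like cells (10.6 and 8.65), and was lowest in mesenchymal-like cells of both libraries, at 3.89 (2.56 to 5.66) and 2.32 (0.931 to 4.77), not apart from POMC-lineage-like cells at 4.16 and 2.67. Boc therefore made up 67.7% (64.9 to 70.3) and 66.3% of the Boc and Cdon UMIs of SC-like cells, 32.5% (24.2 to 41.7) and 30.6% (20.2 to 42.5) of those of late differentiating-like cells and 86.9% (81.5 to 91.2) and 95.5% (90.9 to 98.2) of those of mesenchymal-like cells. The balance of Boc and Cdon transcripts thus differed between these 3 classes in both libraries, with intervals that do not overlap. Gas1, the third co-receptor, was at 107 and 113 CPM in SC-like, 80.5 and 105 in differentiating-like and 109 and 142 in mesenchymal-like cells. It made up most UMIs of the 3 co-receptors. Its share was 78.4% (77.3 to 79.5) and 77.8% in SC-like and 88.6% and 91.1% in late differentiating-like cells. In mesenchymal-like cells it was 78.7% (75.9 to 81.2) and 73.6%, so that SC-like and mesenchymal-like cells overlapped in the male library.

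Of the GLI transcription factors, Gli2 and Gli3 were higher in SC-like than in differentiating-like cells. Gli2 was at 8.81 CPM (7.92 to 9.77) and 9.19 (8.23 to 10.2) in SC-like cells, and 2.37 and 2.98 in differentiating-like cells. Gli3 was at 16.3 (15.1 to 17.6) and 14.1 (12.9 to 15.4), and 4.94 and 5.86. The SC-like level was 3.72-fold (2.41 to 5.93) and 3.08-fold (1.91 to 5.17) higher for Gli2, and 3.30-fold (2.43 to 4.55) and 2.41-fold (1.69 to 3.49) higher for Gli3. Within the differentiating-like cells, Gli2 was at 4.53 and 5.61 CPM in early cells, from 5 UMIs in each library, and 1.65 and 2.58 in late cells. Gli3 was at 7.25 and 4.49 CPM in early and 3.70 and 5.28 in late cells, an order that changed between the libraries. Gli1 had 55 and 56 UMIs in SC-like cells, 1.36 CPM (1.02 to 1.77) and 1.56 (1.18 to 2.03), and 2 and 3 UMIs in differentiating-like cells, giving ratios of 10.0 (2.09 to 108) and 4.88 (1.26 to 30.7). Thinned to 5000 UMIs, the male Gli1 ratio was 0.983 (0.130 to 14.9), so its direction in that library was not kept.

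**Figure D3:**
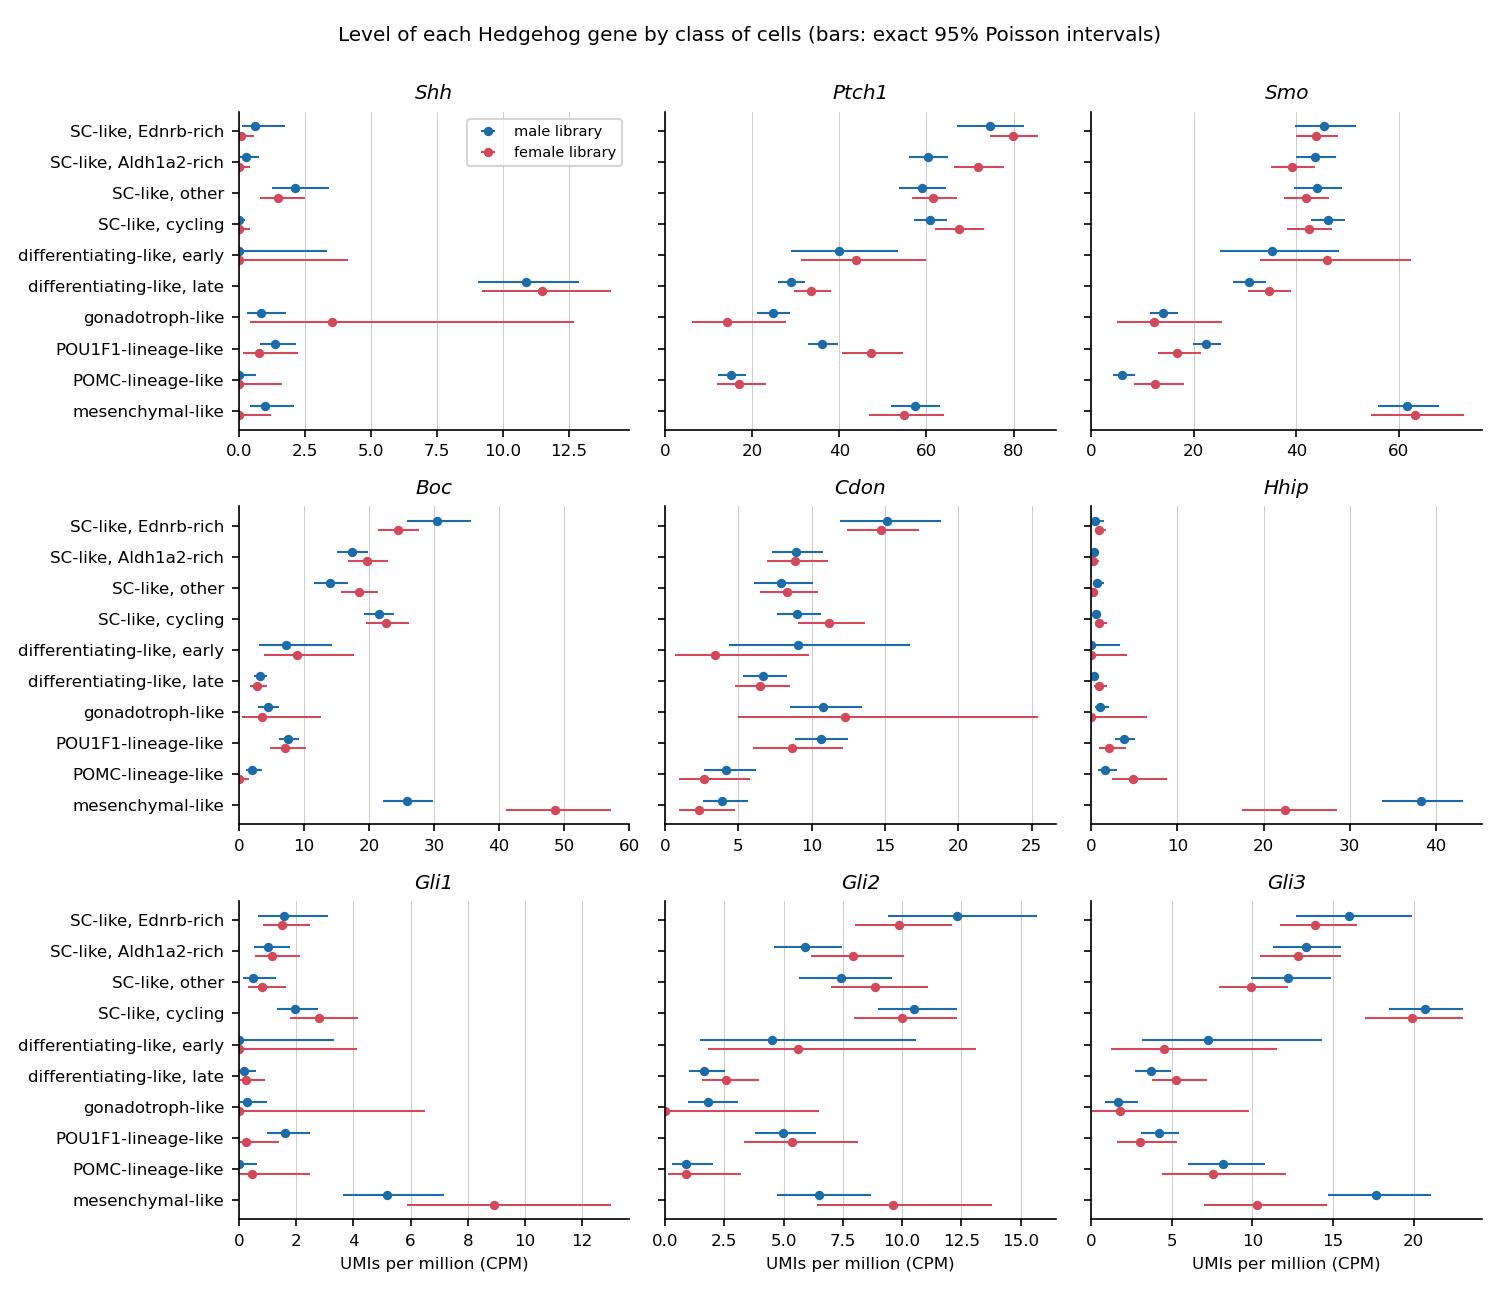
Level of each of the 9 Hedgehog genes in each class (CPM; each panel has its own horizontal axis), with points for the male and female library and bars for exact Poisson 95% intervals. Shh peaks in late differentiating-like cells, Hhip and Gli1 in mesenchymal-like cells, and Gli3 and Boc lie higher in SC-like than in differentiating-like cells.

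Set against all genes, a gene was called where it passed a 2-fold difference in the same direction in both libraries. Between differentiating-like and SC-like cells, 1 of the 9 members was called higher (Shh) against 5.87% of the 15574 genes compared, and 4 were called lower (Boc, Gli1, Gli2, Gli3) against 14.5%. The median log2 ratio of the 9 was -0.95 and -0.89, beside -0.06 and -0.05 for all genes compared. No test was made, and nothing particular to these genes follows from the counts.

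Hhip and Gli1, both targets of the pathway, were highest in mesenchymal-like cells. Hhip was at 38.3 CPM (33.8 to 43.2) and 22.5 (17.5 to 28.5) there, 266 UMIs in 161 cells and 68 in 55 cells, against 0.444 (0.263 to 0.702) and 0.585 (0.362 to 0.894) in SC-like cells. This was a difference of 86.2-fold (48.2 to 164) and 38.5-fold (19.5 to 78.8). At equal depth, 16.1% (13.1 to 19.3) and 12.6% (9.09 to 16.9) of mesenchymal-like cells held a Hhip UMI, compared with 0.107% and 0.271% of SC-like cells. Gli1 was at 5.18 CPM (3.63 to 7.18) and 8.93 (5.89 to 13.0), and 3.82-fold (2.06 to 7.02) and 5.73-fold (2.91 to 11.0) above SC-like cells. Gli1 UMIs were spread over 33 and 24 cells, 36 and 27 UMIs in all.

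Of the 9 members, 2 were called higher in mesenchymal-like than SC-like cells (Gli1, Hhip) against 11.0% of 15620 genes, and 1 lower (Cdon) against 10.5%. Cdon was 2.45-fold (1.52 to 4.11) and 4.70-fold (2.06 to 12.9) higher in SC-like cells. Smo was 1.37-fold (1.19 to 1.58) and 1.51-fold (1.24 to 1.83) and Boc 1.29-fold (1.04 to 1.61) and 2.27-fold (1.79 to 2.87) higher in mesenchymal-like cells, while the ratios for Ptch1 were 0.924 and 0.779, for Gli2 0.736 and 1.04 and for Gli3 1.09 and 0.728. Of the GLI transcripts of mesenchymal-like cells, Gli1 made up 17.6% (12.7 to 23.6) and 31.0% (21.5 to 41.9), compared with 5.13% and 6.28% in SC-like cells.

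**Figure D4:**
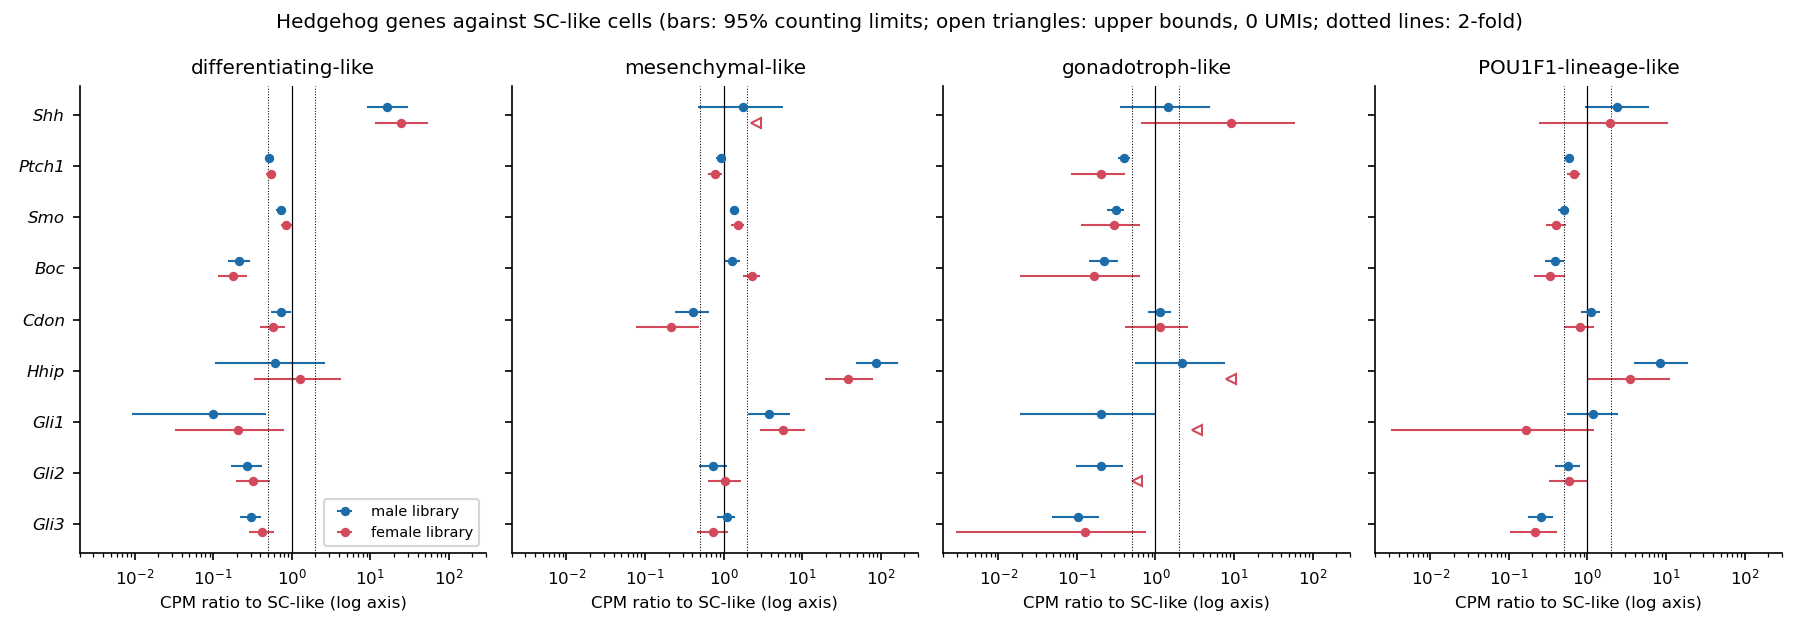
CPM of each Hedgehog gene relative to SC-like cells (log axis) in differentiating-like, mesenchymal-like, gonadotroph-like and POU1F1-lineage-like cells. Bars divide the opposite 95% counting limits of the levels and are wider than a 95% interval. Open triangles are upper bounds where a class held 0 UMIs, and dotted lines lie at 2-fold. Shh lies right of the 2-fold line in differentiating-like cells of both libraries, and Hhip and Gli1 do so in mesenchymal-like cells.

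Endocrine transcripts were present in the male mesenchymal-like cells, and their part in these values was not tested. Pomc had levels of 3179 and 36.1 CPM, Cga of 311 and 18.5, and Pitx1, a pituitary transcription factor, of 55.7 and 23.5. Sox2 was at 89.8 and 65.9 CPM. In the 646 and 304 cells that met the mesenchymal-like gate alone, Pomc was at 412 and 34.4 CPM, Sox2 at 19.1 and 13.9, Hhip at 45.3 (39.7 to 51.4) and 24.7 (19.0 to 31.6) and Gli1 at 5.30 and 9.65. Hhip and Gli1 were therefore as high in these cells as in the whole class.

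Hhip was not tied to higher receptor levels in both libraries. Among mesenchymal-like cells with a Hhip UMI, male Ptch1 was at 71.2 CPM (59.8 to 84.2) against 52.0 (45.9 to 58.7) in those without, but female Ptch1 at 44.1 against 57.3. Smo was at 77.4 against 55.6 and 60.6 against 63.8 CPM. Median depth was 9738 against 7264.5 UMIs in the male and 8298 against 7930 in the female cells.

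The endocrine classes held less of most receptor and GLI transcripts than SC-like cells. Of gonadotroph-like cells the female library had 37. In this class, 4 of the 9 members were called lower than in SC-like cells (Ptch1, Smo, Gli3, Boc) against 7.42% of 15518 genes and 0 higher against 8.11%. The SC-like level was 2.51-fold (2.08 to 3.04) and 5.01-fold (2.44 to 12.1) higher for Ptch1, 3.22-fold and 3.40-fold for Smo, 9.84-fold and 8.01-fold (1.32 to 345) for Gli3 and 4.51-fold and 6.08-fold (1.57 to 53.9) for Boc, where the female gonadotroph-like cells held 1 UMI of Gli3 and 2 of Boc. Cdon was the exception, at a gonadotroph-like over SC-like ratio of 1.13 (0.809 to 1.56) and 1.13 (0.412 to 2.58).

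In POU1F1-lineage-like cells, the precursors and cells of the somatotroph, lactotroph and thyrotroph lineages, 3 members were called lower than in SC-like cells (Smo, Gli3, Boc) against 8.46% of 15763 genes, and 1 higher (Hhip) against 10.1%. Smo was 2.0-fold (1.70 to 2.36) and 2.5-fold (1.86 to 3.39), Gli3 3.91-fold and 4.62-fold and Boc 2.62-fold and 3.00-fold higher in SC-like cells. The Hhip ratio was 8.48 (3.94 to 19.0) and 3.48 (0.982 to 11.1), from 47 UMIs in 21 male cells, 7 of them in 1 cell, and 8 UMIs in 6 female cells. Gli1 in these cells came to 20 UMIs in 11 male cells and 1 UMI in the female library.

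POMC-lineage-like cells, corticotroph and melanotroph precursors and cells, held 4.11-fold (3.21 to 5.34) and 4.17-fold (2.92 to 6.13) less Ptch1 than SC-like cells, and the GLI transcripts they held were mostly Gli3. Gli3 was at 8.15 CPM (5.99 to 10.8) and 7.56 (4.40 to 12.1), 47 of 52 and 17 of 20 GLI UMIs or 90.4% (79.0 to 96.8) and 85.0% (62.1 to 96.8), compared with 61.6% and 56.7% in SC-like cells. The SC-like level was 2.0-fold (1.39 to 2.94) and 1.86-fold (1.06 to 3.49) higher for Gli3 but 10.2-fold and 10.3-fold (2.56 to 95) higher for Gli2, of which the female POMC-lineage-like cells held 2 UMIs. Of the POMC-lineage-like cells, 31.1% and 51.6% met several gates, and the part of those cells in the values of this class was not tested. In POU1F1-lineage-like cells Gli2 made up 46.3% and 61.8% of GLI UMIs. Summed over the 3 GLI genes, the levels were 26.5 and 24.8 CPM in SC-like, 29.4 and 28.8 in mesenchymal-like, 10.7 and 8.65 in POU1F1-lineage-like, 9.01 and 8.90 in POMC-lineage-like and 7.44 and 9.16 in differentiating-like cells. Gonadotroph-like cells had the lowest, 3.73 (2.46 to 5.42) and 1.76 CPM (0.0445 to 9.80), from 27 UMIs and 1 UMI.

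**Figure D5:**
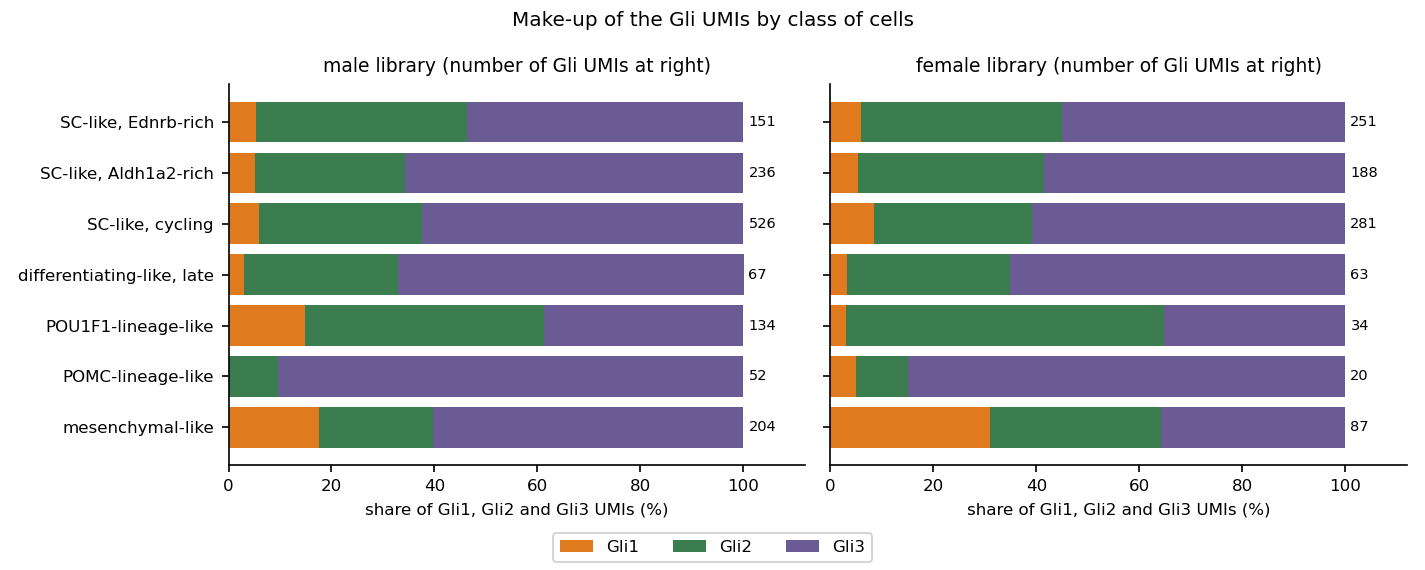
Share of Gli1, Gli2 and Gli3 UMIs among the GLI UMIs of each class (percent, stacked to 100) in the male and female library. Gli3 takes 90.4% and 85.0% in POMC-lineage-like cells and Gli1 its largest share, 17.6% and 31.0%, in mesenchymal-like cells.

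Within SC-like cells, Ednrb-rich cells (420 and 999) and Aldh1a2-rich cells (1106 and 908) were compared, Ednrb being an endothelin receptor and Aldh1a2 the enzyme that makes retinoic acid. None of the 7 members with enough UMIs was called higher (2.36% of 13960 genes) or lower (1.19%), by the 2-fold rule, which is not a test. Shh and Hhip were under the count minimum. Cdon was 1.69-fold (1.10 to 2.59) and 1.66-fold (1.12 to 2.48) higher in Ednrb-rich cells. Boc had ratios of 1.76 (1.30 to 2.37) and 1.24 (0.936 to 1.64), Gli2 2.08 (1.26 to 3.43) and 1.25 (0.799 to 1.96), Ptch1 1.23 (1.03 to 1.47) and 1.11 (0.957 to 1.29), Smo 1.04 and 1.12 and Gli3 1.21 and 1.09.

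Cycling SC-like cells (775 and 549) held more Gli1 and Gli3 than the other SC-like cells. Gli1 was at 1.96 CPM (1.33 to 2.78) and 2.79 (1.79 to 4.15) against 0.972 (0.623 to 1.45) and 1.17 (0.802 to 1.66), ratios of 2.01 (0.919 to 4.46) and 2.38 (1.08 to 5.17). It was the 1 member of 9 called higher, against 4.43% of 15133 genes, and 0 were called lower, against 2.39%. Gli3 was 1.53-fold (1.23 to 1.91) and 1.62-fold (1.24 to 2.10) higher in cycling cells. Ptch1 (0.969 and 0.942) and Smo (1.04 and 1.02) had ratios near 1.

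Pairs of these transcripts were seldom caught in the same cell at this depth. Of cells thinned to 5000 UMIs, Ptch1 and Smo were both detected in 142 of 2805 (5.06%, 4.28 to 5.94) and 165 of 3321 (4.97%) SC-like cells, in 36 of 573 (6.28%) and 18 of 301 (5.98%) mesenchymal-like cells, in 12 of 824 (1.46%) and 17 of 573 (2.97%) late differentiating-like cells, and in 0 of 219 and 0.781% of POMC-lineage-like cells. Boc or Cdon was detected in 12.8% and 14.6% of SC-like, 13.4% and 21.3% of mesenchymal-like and 3.76% and 4.71% of late differentiating-like cells. With Gas1 counted as well, a co-receptor was detected in 43.6% and 45.2%, 39.8% and 50.5%, and 28.3% and 33.0% of these classes. A GLI gene was detected in 10.8% and 10.8% of SC-like, 17.1% and 13.6% of mesenchymal-like and 2.18% and 3.32% of late differentiating-like cells. Shh and Ptch1 were detected together in 5 of 824 (0.607%) and 3 of 573 (0.524%) late differentiating-like cells.

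Among the 37 further pathway genes, 32 could be compared between differentiating-like and SC-like cells, of which 4 were called higher and 7 lower, against 5.87% and 14.5% of all genes compared. Their median log2 ratio was -0.21 and -0.15, beside -0.06 and -0.05 for all genes compared. Of the 6 response genes compared, 3 were called higher and 2 (Bcl2, Ccnd1) lower. Besides Scube1, the higher genes were all response genes: Foxf1, a forkhead factor, by 5.02-fold (1.80 to 14.7) and 6.12-fold (1.90 to 20.7), Mycn, a growth regulator, by 3.18-fold and 2.37-fold, and Snai1, a factor of epithelial transition, by 3.47-fold and 4.25-fold. Besides Scube2 and Scube3, SC-like cells were higher for the endocytic receptor Lrp2 (7.30-fold and 12.9-fold, 3.73 to 73.5, from 3 UMIs in the female differentiating-like cells), the glypican Gpc3 (6.12-fold and 6.79-fold), the cilium gene Evc (2.66-fold and 2.08-fold), Bcl2 (2.46-fold and 2.15-fold) and cyclin gene Ccnd1 (2.18-fold and 2.48-fold). None of the 8 GLI control genes, such as Sufu at 6.07 and 6.35 against 4.94 and 5.96 CPM, was called in either direction.

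In mesenchymal-like against SC-like cells, 34 of the 37 could be compared, with 7 called higher and 2 lower, against 11.0% and 10.5% of all genes, and a median log2 ratio of 0.27 and 0.29 beside 0.02 and 0.02 for all genes. The higher genes were Scube1 (232-fold, 127 to 461, and 686-fold, 235 to 2865), Scube2 (3.01-fold and 3.07-fold), Scube3 (3.99-fold and 4.03-fold), Gpc3 (7.32-fold and 6.64-fold), Snai1 (18.1-fold and 28.5-fold), Foxl1, at 6.34 and 4.63 CPM against 1 UMI in the SC-like cells of each library (ratios of 257, 33.5 to 13614, and 166, 16.3 to 11023), and Foxf2, at 45.1 and 58.2 CPM against 1 and 0 UMIs in SC-like cells. Foxf2 and Foxl1 are forkhead factors of mesenchyme near Hedgehog sources, and both were nearly absent from SC-like cells. Lrp2 (17.1-fold, 2.5 to 823, and 4.15-fold, 1.20 to 23.7, from 1 and 3 UMIs in mesenchymal-like cells) and Ccnd1 (4.76-fold and 5.09-fold) were higher in SC-like cells.

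Of the list, 31 were compared in the gonadotroph-like class, with Mycn (2.23-fold and 2.64-fold) higher than in SC-like cells and 3 lower (Gpc3, Bcl2, Ccnd1), against 8.11% and 7.42% of all genes. In POU1F1-lineage-like cells 32 were compared, with 6 called lower (Gas1, Lrp2, Gpc3, Evc, Gpr161, Ccnd1), against 8.46% of all genes. Gas1 was at 41.4 and 49.8 CPM there against 107 and 113 CPM in SC-like cells. In Ednrb-rich against Aldh1a2-rich SC-like cells, the cyclin gene Ccnd2 was higher (2.79-fold and 2.88-fold).

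As a description with no test, the pattern of Shh over 18 points (9 classes in each of 2 libraries, which share their library and depth) was most like that of Cnpy1 (Pearson r 0.917 on log2(CPM + 1)), Nbeal1 (0.894) and Gde1 (0.884), of 8715 genes compared. Those genes had to reach 20 CPM in a class, and the genes of the marker gates were left out. Classes needed at least 50 cells in each library, which left out gonadotroph-like cells. The genes nearest to Ptch1 were Mgst1 (0.988), Jun (0.983) and Tmem47 (0.981), those nearest to Gli1 were Ets1 (0.931), Col5a1 (0.928) and Capzb (0.927), and those nearest to Hhip were Rab3il1 (0.955), Sema5a (0.95) and Slc41a3 (0.949). Among the members, Ptch1 and Gli2 had r of 0.96, Gli2 and Boc 0.93 and Ptch1 and Boc 0.90.

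Between the female and male libraries, 81 pairs of member and class were compared, and the interval of the ratio held 1 in 75 of them. The female level was higher for Ptch1 in SC-like (1.14-fold, 1.05 to 1.23), Aldh1a2-rich (1.19-fold, 1.02 to 1.39) and POU1F1-lineage-like cells (1.31-fold, 1.03 to 1.66) and for Boc in mesenchymal-like cells (1.89-fold, 1.38 to 2.58). The ratio was below 1 for Gli3 (0.579, 0.330 to 0.989) and Hhip (0.587, 0.405 to 0.843) in mesenchymal-like cells, the class whose Pomc level differed as given above. Intervals were not adjusted for the number of pairs, and each is wider than a 95% interval of its ratio.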

How the data were processed

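The authors deposited raw UMI counts for 1 male and 1 female library, made by Cell Ranger 3.0.2 with reads mapped to mm10 with eGFP added (10x 3′ chemistry; the labels name both v2.0 and v3 chemistry). Cells with at least 50 genes and a mitochondrial share up to the mean plus 3 SD were kept, removing 159 of 10569 male and 85 of 5796 female barcodes. The 9 genes, the marker gates and the gene lists were chosen with earlier results of these data known. Raw counts were summed per class and library, using Python 3.11.15, numpy 2.4.6, scipy 1.17.1 and pandas 2.3.3. Genes with at least 20 UMIs over the 4 sums were compared, for the 2-fold calls, counts under 3 were set to 3 and a class so raised could not be the higher, a limit added after the data were examined. Named pathway genes were those past 2-fold in the differentiating-like or mesenchymal-like comparison, all ligands, and the genes most alike to Shh, Ptch1, Gli1 and Hhip. Others named for a class or the late cells were chosen after their values were seen. Printed ratios use the counts as they are, except that a count of 0 was set to 3 to give a bound. Thinning drew 5000 UMIs per cell and left out 3627 male and 287 female shallower cells. Doublets were not removed. Scrublet in scanpy 1.11.5 marked 867 and 261 cells. Mural-like, endothelial-like, immune-like and pituicyte-like cells fell under 50 cells over both libraries and are not given. The ratio limits and the 2-fold calls were tested on simulated counts that carried counting error only, and the thinning was checked on real cells. Results for 1 gene of the pathway list are not reported here.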

Additional observations from a re-analysis of the deposited data

Results flagged for a closer look

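Shh UMIs were found in the cells that met no gate, which no comparison of classes used, 122 in the male library (39.2%, 33.8 to 44.9, of its Shh UMIs; 76 cells) and 40 in the female (27.0%, 20.1 to 34.9; 29 cells). Most lay in unassigned cells with at least 20 UMIs of Cga, which had either no gonadotroph gene of the gate or 1 UMI of Pou1f1 (40 and 7 cells), a set described after its values were seen. These 443 and 105 cells held 85 and 30 Shh UMIs, 27.3% and 20.3% of each library's total, at 13.5 CPM (10.8 to 16.7) and 18.9 CPM (12.7 to 26.9), and 11.1% and 21.9% of them had a Shh UMI. Beside Cga at 7882 and 4917 CPM they held Neurod1 at 1066 and 1277, Gadd45g at 597 and 488, Foxl2 at 266 and 221, Smoc2 at 201 and 249, Sox2 at 156 and 217 and Lef1 at 76.2 and 81.1 CPM, with Nr5a1 at 1.27 and 1.26. Their receptor levels were 24.2 and 35.2 CPM for Ptch1, 15.4 and 28.3 for Smo, 1.75 and 4.40 for Gli2 and 1.75 and 2.51 for Boc. Of the Shh-positive cells that met no gate, 68 of 76 (89.5%) and 29 of 29 (100%) held Smoc2, Pou3f4 or C1ql2, compared with 21.8% and 29.7% of the Shh-negative ones.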

How the results depend on the processing

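Of 413 values for 52 results under 8 alternative settings, 385 stayed within the counting interval of the reported value or gave a bound that allows it, 27 moved out of it and 1 reversed. The cause was not tested in any of these. Reversed was the Gli1 ratio of SC-like over differentiating-like cells in the male library (0.983 thinned, 0.130 to 14.9). With thinning, the male Shh ratio of differentiating-like over SC-like cells was 6.47, the SC-like over differentiating-like ratios were 6.64 and 4.18 for Gli3 and 8.80 for female Boc, and the male mesenchymal-like over SC-like ratios were 7.74 for Gli1 and 178 for Hhip. With a differentiating-like gate that did not need Lef1, the Shh ratio was at least 75.0 and 212, and the male SC-like over differentiating-like ratios were 1.55 for Ptch1, 2.26 for Gli3 and 3.28 for Boc. The share of Shh UMIs in differentiating-like cells was 35.4% and 42.6% with doubled gate minimums, 25.7% and 30.9% thinned and 58.5% and 75.7% without Lef1. Doubled minimums gave female Boc a ratio of 8.71. The male Smo ratio of endocrine over SC-like cells was 0.292 without Scrublet-marked cells and 0.302 as a mean over cells. No paired analysis was possible because each sex has 1 library and no result comes from a test, and for the same reason no library could be left out. Depth limits Gli1, Shh and Hhip most, whose levels in several classes rest on 0 to 3 UMIs.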
